A study of Mus musculus with 12 samples.

Results

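The genes described here were 10 members of the insulin-like growth factor, Akt and mTOR growth pathway, taken by symbol from a table of 10187 genes. They were the ligands Igf1 and Igf2, the receptor Igf1r, the binding protein Igfbp5, the lipid kinase subunit Pik3r1, the kinases Akt1, Akt2, Mtor and Rps6kb1, and the translation inhibitor Eif4ebp1. Polyadenylated RNA of the triceps brachii, a muscle of the upper forelimb, was sequenced in 12 male C57/BL6 mice. A conditional deletion of exon 3 of Mstn was crossed with access to a running wheel, giving 4 groups of 3 mice. The inactive groups, IW (wild-type) and IM (myostatin-reduced), had no wheel. The active groups, AW (wild-type) and AM (myostatin-reduced), had one for 12 weeks from the age of 6 months. Mice of all 4 groups, the wild-type included, ate chow with 0.025% tamoxifen for 6 weeks, beginning at 4 months, so the drug that induced the deletion was shared by every group. Active mice were housed singly, so housing and running cannot be told apart, and the promoter that drove the inducible Cre was not given in the sources used here. By the study's methods, the sampled myostatin-reduced and control mice were matched for running behavior. The labels do not say which mouse was matched with which, so the main fit leaves that matching out. Nothing in the labels named the litters or preparation batches of the mice, so the p-values measure the spread between these 12 samples.

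Insulin-like growth factors bind the receptor encoded by Igf1r, which activates the lipid kinase phosphatidylinositol 3-kinase and, through it, the Akt kinases. Akt relieves the inhibition of mTOR complex 1, which phosphorylates the S6 kinase encoded by Rps6kb1 and releases the cap-binding factor eIF4E from the inhibitor encoded by Eif4ebp1, so that translation rises. In skeletal muscle this route drives growth in fibre size, and myostatin, a secreted inhibitor of muscle mass, is known to restrain it. Much of that control lies in phosphorylation, which RNA levels do not measure.

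Values are normalized read counts, scaled by the authors so that libraries are comparable but not divided by gene length. Mice 1, 2 and 3 of a group are named by the group and a number. Changes are log2 differences of (value + 1) from a limma fit to all 7247 genes with a mean of at least 10, with p-values adjusted over all of them and called when under 0.05. All 10 members passed that filter, with means between 14.1 for Igf2 and 1135 for Igfbp5. The libraries held about 9023561 to 12183769 reads in the table's genes, and no member had fewer than about 102 reads in any mouse, so none was near the floor of 3 reads.

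Mstn itself, the targeted gene, was at 79.7, 138 and 131 in IW1 to IW3, 110.3, 90.1 and 80.8 in AW, 18.3, 17.2 and 21.6 in IM, and 16.1, 8.70 and 13.5 in AM. Every myostatin-reduced mouse lay below every wild-type mouse, and the genotype change was -2.66 (SE 0.158, limma adjusted p = 1.29e-06). The 10 skeletal muscle markers (muscle creatine kinase, fast myosins and the like) were all in the table. Their summed level was 180945.5 to 211389.2 in IW, 158347.5 to 186339.1 in AW, 223362.5 to 234038.4 in IM and 169097.7 to 209230.1 in AM, so the 3 IM mice lay above every other mouse, and the part of this difference in the results was not tested. The level of 11 slow-fibre genes was uneven within 3 of the 4 groups, with summed values of 94.3 to 1370 in IW, 151 to 1831 in AW, 78.3 to 112 in IM and 117 to 1343 in AM. In whole muscle, a change in the number of cells of a type and a change in RNA per cell cannot be told apart.

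The promoters of the 2 members that passed the test for genotype or activity are shown because they are where those transcripts start, each as the 250 bases before the RefSeq start on build GRCm38.p6. The first belongs to Igfbp5 (chr1:72874866-72875115, minus strand) and the second to Rps6kb1 (chr11:86544808-86545057, minus strand), both written 5′ to 3′ on the gene's strand.
Igfbp5: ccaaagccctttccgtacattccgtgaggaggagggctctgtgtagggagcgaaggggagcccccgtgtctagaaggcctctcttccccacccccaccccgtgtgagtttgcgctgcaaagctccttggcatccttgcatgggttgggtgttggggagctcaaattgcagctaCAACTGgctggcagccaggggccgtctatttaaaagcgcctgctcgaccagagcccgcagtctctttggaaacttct
Rps6kb1: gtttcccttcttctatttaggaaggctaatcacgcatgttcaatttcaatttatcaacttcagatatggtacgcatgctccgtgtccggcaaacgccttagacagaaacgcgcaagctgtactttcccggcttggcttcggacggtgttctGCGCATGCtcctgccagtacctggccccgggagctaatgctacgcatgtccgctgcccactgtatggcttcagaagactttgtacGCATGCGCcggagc
Capitals in the Igfbp5 promoter mark an E-box, CANNTG, the core bound by basic helix-loop-helix factors such as the myogenic regulators, whose first base lay 77 bases before the start. Such a match was held by 66.2% of 32851 mouse promoter windows searched on both strands, so it is a common feature. Capitals in the Rps6kb1 promoter mark 2 matches to GCATGCGC or its reverse complement, the core of the site of nuclear respiratory factor 1, with first bases 99 and 14 bases before the start. That motif was chosen after the sequence had been read, and 2.3% of the windows held it on either strand, so this share does not measure how unusual the matches are. The Rps6kb1 window held no E-box, and the Igfbp5 window held no such core. Neither window held the letters CAGAC (a SMAD box, held by 42.2% of windows), GTAAACA (a forkhead core, 3.2%) on either strand, or TATAAA on the coding strand (7.6%). The GC content was 58.8% for Igfbp5 and 52.8% for Rps6kb1, beside a median of 52.4% over all windows.

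Levels between genes were compared per kilobase of annotated exon on mm9. Per kilobase, Igfbp5 stood at a mean of 189 (range over the 12 mice 84.5 to 314), followed by Eif4ebp1 at 34.9, Akt2 at 28.4 and Akt1 at 12.4. Mtor at 7.39, Rps6kb1 at 6.57, Pik3r1 at 6.55 and Igf1r at 5.07 came next, and Igf2 at 2.57 and Igf1 at 1.93 were lowest. The ranges of neighbours overlapped except between Igfbp5 and Eif4ebp1, between Akt2 (25.7 to 31.1) and Akt1 (10.6 to 14.9), and between Akt1 and Mtor. Within families, on the same per-kilobase scale, Igfbp5 made up 71.9% of the 5 insulin-like growth factor binding proteins in the table (Igfbp3 to Igfbp7). Eif4ebp1 supplied 29.7% of the 4E-binding proteins, behind Eif4ebp2 at 64.0%. Rps6kb1 supplied 43.7% of the S6 kinases, and Igf1r, at 13.9%, was below Igf2r at 47.6% and Insr at 38.5% among the receptors.

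**Figure D1:**
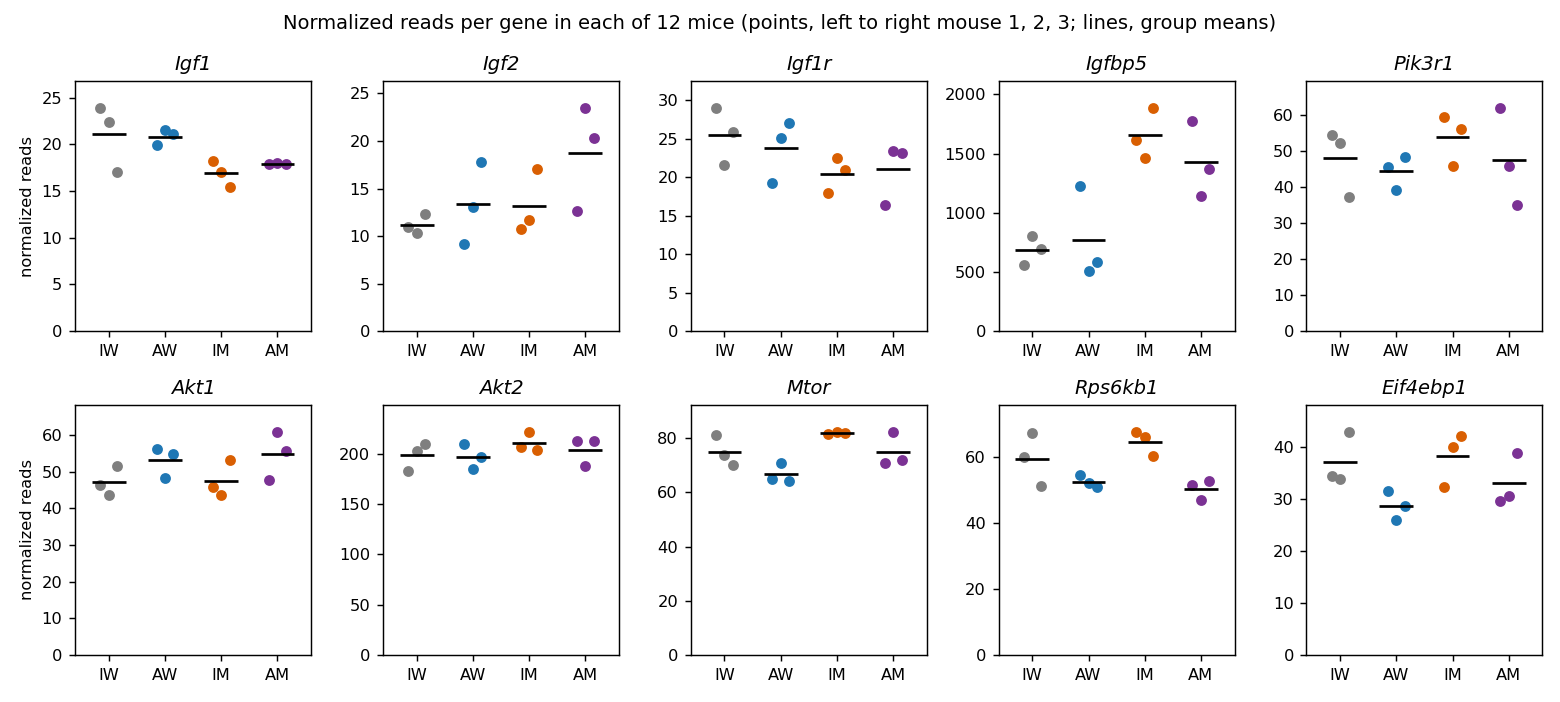
Normalized reads (vertical axes, each starting at 0) of the 10 genes in every mouse of the IW, AW, IM and AM groups, with points for mice and lines for group means (n = 3). Igfbp5 lies between 1141 and 1886 in the 6 myostatin-reduced mice and, AW1 apart, at most 807 in the wild-type mice, whereas Akt2 stays between 183 and 222 in all 12.

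The first comparison asked how myostatin reduction changed these genes. Of the 10 members, 1 was called for genotype, the over-expressed Igfbp5, where 5.78% of all tested genes were called and 3.57% were called higher. The members' median genotype change was 0.092 beside -0.0049 over all genes tested, and 8 of 10 lay above 0 beside 48.3% of all genes. At an unadjusted p under 0.05 there were 3 members, Igf1, Igfbp5 and Mtor, beside 22.5% of all genes.

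Igfbp5 (chr1:72904506-72921458, minus strand, mm9) encodes a secreted protein that binds insulin-like growth factors and is abundant in differentiating muscle. It was at 558, 807 and 690.4 normalized reads in IW1 to IW3 and at 1224, 507 and 584 in AW1 to AW3. The myostatin-reduced mice held 1613, 1464 and 1886 in IM1 to IM3 and 1778, 1141 and 1368 in AM1 to AM3. The inactive groups did not overlap, as in 25.8% of all tested genes, and among active mice AW1 lay above AM2, so 5 of 6 myostatin-reduced mice were above every wild-type mouse. The genotype change was 1.13 (SE 0.193, 2.19-fold, limma adjusted p = 0.00719), and it was called in all 12 fits that left out 1 mouse, with changes from 1.01 to 1.32. As a share of the 5 binding proteins per kilobase, Igfbp5 went from 64.7% ± 4.36 (SD, n = 3) in IW and 63.7% ± 12.9 in AW to 81.9% ± 2.45 in IM and 77.5% ± 6.82 in AM. None of the other 5 tested genes of the binding protein list was called for genotype.

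Within activity levels, Igfbp5 was over-expressed in IM relative to IW by 1.28 (SE 0.273, adjusted p = 0.0345), where 2.51% of genes were called and 1.38% were called higher. That call was lost without IW1, IW3, IM1, IM2 or IM3 (adjusted p = 0.153, 0.0905, 0.105, 0.084 and 0.143) and with robust variance moderation (0.0562). Between AW and AM its change was 0.98 (SE 0.273, adjusted p = 0.207), a contrast in which 0.207% of genes were called. Without AW1, the active wild-type mouse with the high Igfbp5 value, that change was 1.37 (adjusted p = 0.0114). This was the 1 call among the 12 fits that left out 1 mouse. Over those fits the change went down to 0.73 and the adjusted p up to 0.495 (without AW3). The 2 genotype changes were not shown to differ, since the interaction was -0.30 (95% interval -1.14 to 0.54, adjusted p = 0.915).

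Igfbp5 also varied with cell type markers inside the groups. In 3 of 4 groups the mouse with the highest slow-fibre score, the mean log2 deviation of the 11 slow-fibre genes, had the lowest Igfbp5, and in 1 of 4 the order was inverse throughout. AW1, the AW mouse with the high Igfbp5, had a score of -1.02 beside 2.33 and 2.49 in AW2 and AW3. The summed level of the 6 adipocyte-list genes in the table (of 7 listed, Lep not analysed here) ran in exactly the inverse order of Igfbp5 in 3 of 4 groups, and that of the endothelial genes in 1 of 4. Lpl, a lipase that muscle fibres also make, supplied 75.7 to 89.7% of the adipocyte-list sum, and without it the sum of the other 5 genes ran in exactly the inverse order in 2 of 4 groups. The adipocyte-specific Adipoq, Plin1 and Cidec had means of 5.65, 2.54 and 3.86 normalized reads and did not pass the filter. As deviations from group means over the 12 mice, log2 Igfbp5 had r = -0.94 with the adipocyte-list sum (-0.91 with Lpl alone and -0.54 with the other 5 genes), -0.79 with the endothelial, -0.76 with the pericyte and smooth muscle and 0.69 with the skeletal muscle sum, beside -0.70 with the slow-fibre score, a description in which these lists moved with the same mice. That sum was 744 to 1204 in IW, 872 to 1771 in AW, 476 to 731 in IM and 1083 to 1501 in AM. For genotype all 11 tested slow-fibre genes lay below 0, with a median change of -1.30, beside 3750 of all 7247 tested genes. All 3 tested adipocyte genes also lay below 0, with a median of -0.21. None of either list was called (0 of 11 and 0 of 3), beside 5.78% of all genes. With the slow-fibre score as a covariate, the genotype change of Igfbp5 was 0.91 (SE 0.153, adjusted p = 0.00745). From IW to IM all 8 tested endothelial and all 6 pericyte and smooth muscle genes lay below 0 (medians -0.271 and -0.335), beside 3594 of 7247 genes. From AW to AM all of both lists lay above 0 (medians 0.177 and 0.429), beside 47.2% of genes. The part of these and the other marker lists in the result was not tested.

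**Figure D2:**
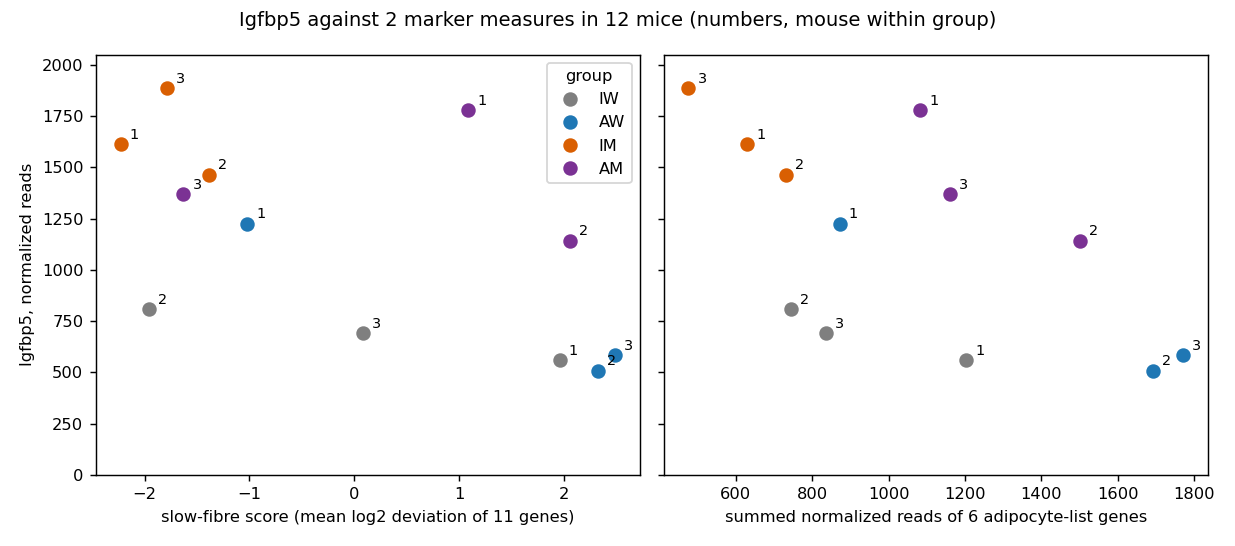
Igfbp5 in normalized reads (vertical axis) against the slow-fibre score (left, log2 units) and against the summed normalized reads of 6 adipocyte-list genes (right), 1 point per mouse, coloured by group and numbered. Inside the groups Igfbp5 tends to be lower where either measure is higher, and at a given score the IM and AM points lie above the IW and AW points.

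Igfbp5 lies 19.8 Mb from Mstn on chromosome 1. Within 2 Mb of Igfbp5, 4 of 22 other tested genes were called for genotype (18.2%), namely Mreg at -0.33, Xrcc5 at 0.43, Arpc2 at 0.19 and Plcd4 at 0.56. Within 5 Mb it was 5 of 36 (13.9%), the fifth being Obsl1, and between Mstn and Igfbp5 it was 6 of 49 (12.2%), beside 378 of 6816 (5.5%) on the other chromosomes. These neighbours were named for their position after their values were seen. Igfbp5 had a larger change than any of the 36, and the part of the shared chromosome in its change was not tested.

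**Figure D3:**
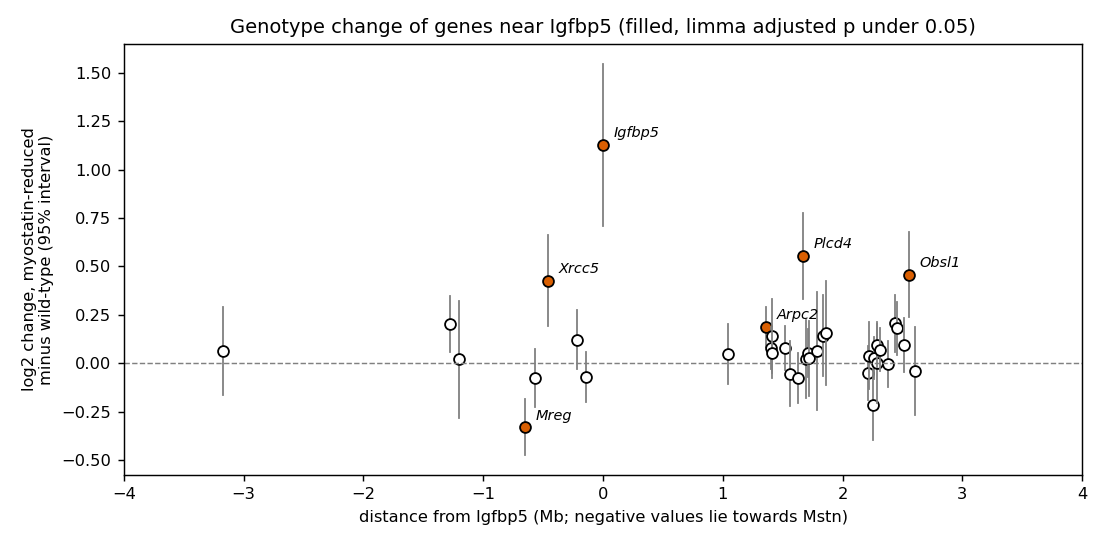
Genotype change (vertical axis, log2, with 95% intervals) of Igfbp5 and the 36 tested genes within 5 Mb, against distance from Igfbp5 in Mb. Igfbp5 at 1.13 stands above all of them, and the called neighbours include both higher genes (Plcd4 at 0.56, Xrcc5 at 0.43) and a lower one (Mreg at -0.33).

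Igf1, the ligand made by muscle as well as liver, was at 23.9, 22.4 and 17.0 in IW, 19.9, 21.5 and 21.1 in AW, 18.2, 17.0 and 15.4 in IM, and 17.9, 18.0 and 17.9 in AM. The active groups did not overlap, as in 15.2% of genes, whereas IW3 lay within the IM range. The genotype change was -0.25 (SE 0.0787, adjusted p = 0.0862), short of the threshold, and it passed without IW3 (-0.32, adjusted p = 0.0152) and not in the other 11 fits that left out 1 mouse (up to 0.200 without IW1). Igf2, the second ligand, ranged from 9.20 to 23.5 with no called change in either direction (genotype 0.33, SE 0.174, adjusted p = 0.290). Its 3 AM mice (12.6, 23.5 and 20.3) lay above its 3 IW mice (11.0, 10.4 and 12.3), a separation seen in 21.0% of genes, and that contrast was not called. From IW to AM the changes of 8 of 8 tested endothelial and 6 of 6 pericyte and smooth muscle genes also lay above 0 (medians 0.46 and 0.23, none called), beside 48.5% of all genes. As deviations from group means over the 12 mice Igf2 had r = 0.885 with the endothelial, 0.84 with the pericyte and smooth muscle and 0.88 with the Schwann cell and nerve sum. Their part in the Igf2 values was not tested. Igf1r, the shared receptor, ranged from 16.5 to 29.0, with a genotype change of -0.24 (95% interval -0.48 to 0.01, adjusted p = 0.238).

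Mtor (chr4:147822720-147931792, plus strand, mm9), the kinase of both mTOR complexes, was at 81.1, 73.8 and 70.0 in IW and at 64.9, 70.9 and 64.1 in AW. It was at 81.7, 82.5 and 82.1 in IM and at 70.9, 82.4 and 71.9 in AM. At each activity level all 3 myostatin-reduced mice lay above all 3 wild-type mice, a pattern held by 1 of 10 members and by 5.37% of all tested genes in either direction. The margin was small, with AM1 and AW2 differing only in the second decimal (70.89 and 70.86), and the genotype change of 0.15 (SE 0.0542, adjusted p = 0.126) was not called. Pik3r1, the regulatory subunit of phosphatidylinositol 3-kinase, ranged from 34.9 to 62.0 and changed by 0.12 (95% interval -0.17 to 0.41) with genotype. Akt1 and Akt2 changed by 0.02 (95% interval -0.14 to 0.19) and 0.07 (-0.05 to 0.19), and Rps6kb1 and Eif4ebp1 by 0.03 (-0.11 to 0.17) and 0.12 (-0.09 to 0.32), none of them called.

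**Figure D4:**
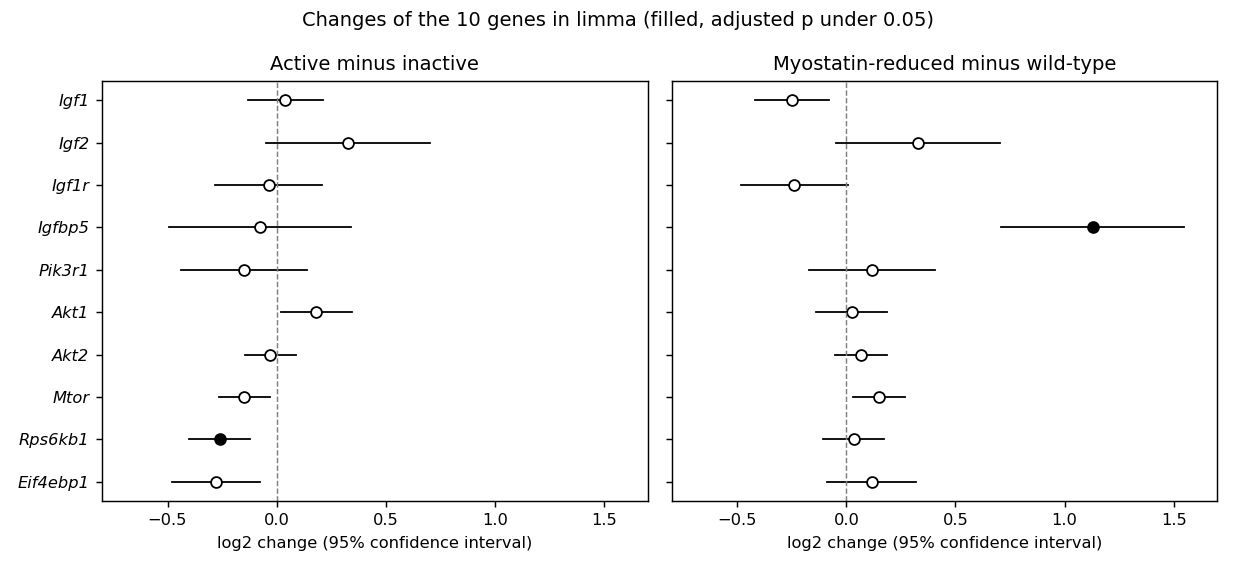
Log2 changes of the 10 genes with 95% intervals (horizontal axes) for activity (left) and genotype (right), filled where the limma adjusted p was under 0.05. Rps6kb1 at -0.26 is the filled point for activity and Igfbp5 at 1.13 for genotype, and the interval of Igfbp5 is the widest in both panels.

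The second comparison asked how wheel running changed the same genes. Of the 10 members, 1 was called for activity, the under-expressed Rps6kb1, where 14.5% of all tested genes were called and 6.51% were called lower. The members' median activity change was -0.06 beside -0.02 over all genes, and 3 of 10 lay above 0 beside 44.5% of all genes. At an unadjusted p under 0.05 there were 4 members, with Eif4ebp1, Mtor and Rps6kb1 lower and Akt1 higher in active mice, beside 30.2% of all genes.

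Rps6kb1 (chr11:86312373-86358307, minus strand, mm9) encodes the p70 S6 kinase, which phosphorylates ribosomal protein S6. It was at 60.0, 67.3 and 51.4 in IW, 54.6, 52.1 and 51.1 in AW, 67.8, 66.1 and 60.5 in IM, and 51.7, 47.0 and 52.8 in AM. All AM mice lay below all IM mice, a lack of overlap seen in 29.8% of genes, and among wild-type mice IW3 lay within the AW range. The activity change was -0.26 (SE 0.0649, adjusted p = 0.0198), or 0.834-fold. It lost its call without AW3, IM1 or AM2 (adjusted p = 0.0552, 0.0514 and 0.0537). With the slow-fibre score as a covariate it was -0.20 (adjusted p = 0.123).

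Within genotypes, Rps6kb1 fell from IM to AM by 0.35 on the log2 scale (SE 0.0918, adjusted p = 0.0357), where 7.84% of genes were called and 2.53% were called lower. That call was lost without AW2, IM1, IM2, IM3, AM2 or AM3 (adjusted p = 0.0505 to 0.160) and with the slow-fibre covariate (0.160). From IW to AW the change was -0.17 (adjusted p = 0.424), where 0.0276% of genes (2) were called, a number that was 198 without AW1 and 415 with sample weights. The interaction of -0.18 (95% interval -0.47 to 0.10) did not pass the test. Paired by number, all 3 AM mice lay below their IM partners, as any pairing would give, since these groups did not overlap. In a limma fit of IM and AM alone with the pairs as a block, chosen after seeing the data, the change was called (adjusted p = 0.0215), as were 14.9% of genes. The pairs were picked from these same data, so this call is no independent support for the one above. Endothelial genes moved the other way, since 6 of 8 were called higher with activity. Their summed level was 312 to 422 in IW, 322 to 546 in AW, 286 to 306 in IM and 375 to 628 in AM, and its part in the change of Rps6kb1 was not tested. The last 155 bases of Rps6kb1 are shared with Rnft1 on the opposite strand, beside 8658 exon bases of Rps6kb1 in all, and use of strand in the counting was not stated, so reads in that stretch may count for either gene. Rnft1 fell with activity by 0.20 (adjusted p = 0.0329).

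Eif4ebp1, whose product holds back cap-dependent translation until mTOR complex 1 phosphorylates it, was at 34.3, 33.8 and 42.9 in IW and at 31.5, 25.9 and 28.6 in AW. It was at 32.3, 40.0 and 42.1 in IM and at 29.6, 30.6 and 38.9 in AM. All AW mice lay below all IW mice, a lack of overlap seen in 17.5% of genes in that contrast, whereas AM3 lay within the IM range. The activity change was -0.28 (SE 0.0937, adjusted p = 0.0640), short of the threshold. It passed without AW1, IM1 or AM3 (0.0432, 0.0419 and 0.0278), and in the other 9 fits that left out 1 mouse the adjusted p was 0.0654 to 0.149. With the replicate number as a block over all 4 groups, of which the numbers were taken to pair only IM and AM, it was 0.0367, and with the slow-fibre score as a covariate 0.291. Mtor changed by -0.15 with activity (SE 0.0542, adjusted p = 0.0850).

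Akt1, the kinase form most tied to growth, was at 46.4, 43.6 and 51.6 in IW, 56.2, 48.3 and 54.7 in AW, 45.9, 43.6 and 53.2 in IM, and 47.6, 60.9 and 55.7 in AM. Both pairs of groups overlapped, and the activity change of 0.18 (SE 0.0750, adjusted p = 0.122) was not called. Paired by number, Akt1 and Igf2 were higher in AM in 3 of 3 pairs and Mtor, Eif4ebp1 and Rps6kb1 were lower in 3 of 3, so 5 of 10 members moved 1 way in every pair, beside 52.0% of all genes. In the paired fit Igf2 was at 0.46 (adjusted p = 0.0687), Eif4ebp1 at -0.20 (0.143), Akt1 at 0.20 (0.204) and Mtor at -0.13 (0.282), none of them called. Akt2, the form tied to glucose uptake, was the steadiest member, with a highest value 1.21 times its lowest and an activity change of -0.03 (95% interval -0.15 to 0.09). The 95% intervals for activity were -0.13 to 0.21 for Igf1, -0.05 to 0.70 for Igf2, -0.28 to 0.21 for Igf1r, -0.49 to 0.34 for Igfbp5 and -0.44 to 0.14 for Pik3r1, none of them called.

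The third comparison asked whether running changed the members differently in the 2 genotypes. No member was called for interaction, nor was any of the 7247 genes (0.00%) by limma. At an unadjusted p under 0.05 there were 0 members and 297 genes (4.10%). The members' interaction changes had a median of 0.03 beside -0.01 over all genes.

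The remaining contrasts set side by side groups that differed in both factors. From AW to IM, 3 of 10 members were called, all higher in IM, where 18.7% of genes were called and 9.52% were called higher. They were Igfbp5 at 1.20 (adjusted p = 0.0108), Mtor at 0.30 (adjusted p = 0.0185) and Rps6kb1 at 0.29 (adjusted p = 0.0414). With the slow-fibre score as a covariate Igfbp5 was at 0.68 (adjusted p = 0.143) and Rps6kb1 at 0.19 (adjusted p = 0.350), neither of them called. Igfbp5 also lost its call without AW2 or AW3 (adjusted p = 0.0513 and 0.0559), Mtor without AW3 or any 1 of the IM mice (0.0518 to 0.081), and Rps6kb1 without IW1, AW2, AW3 or any 1 of the IM mice (0.0516 to 0.136). From IW to AM, 0 of 10 members were called beside 2.97% of genes, with Igfbp5 at 1.05 (adjusted p = 0.0587) and 3 members at an unadjusted p under 0.05 beside 20.1% of genes. These contrasts reuse the mice of the comparisons above.

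The other genes of the pathway were taken from a list of 101, of which 85 were in the table and 75 passed the filter. With activity 11 of 75 were called (14.7%, beside 14.5% of all genes), 10 lower and 1 higher, with a median change of -0.06. With genotype 8 of 75 were called (10.7%, beside 5.78%), 5 higher and 3 lower, with a median of -0.02. None was called for interaction, and 2 had an unadjusted p under 0.05. Tsc1 and Rragd for activity, and Grb10, Foxo4 and Ddit4l for genotype, were called in all 12 fits that left out 1 mouse, and Gsk3b and Pik3cb in 11 of them. The other called genes kept their call in 1 to 9 of the 12, the activity count fell to 2 without AW3, and the genotype count was 3 to 7 in all 12, with 3 without AW3.

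Among receptor-proximal genes, Irs2, an adaptor that carries the insulin and insulin-like growth factor signal, fell with activity by 0.61 (SE 0.160, adjusted p = 0.0243). It went from 14.5 ± 4.12 (SD, n = 3) in IW to 8.36 ± 2.37 in AW and from 14.4 ± 1.92 in IM to 9.93 ± 2.34 in AM. Grb14, an adaptor that inhibits the insulin receptor, rose with activity by 0.58 (adjusted p = 0.0238), and its relative Grb10 rose with myostatin reduction by 0.42 (adjusted p = 0.0146). Grb10 was at 27.0 to 34.2 in the 6 wild-type mice and at 36.1 to 51.7 in the 6 myostatin-reduced mice, without overlap, as in 2.39% of genes.

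Among the phosphatidylinositol 3-kinase genes, Pik3ip1, an inhibitor of the kinase, fell with activity by 0.40 (adjusted p = 0.0207). The catalytic subunits Pik3cb and Pik3ca fell with myostatin reduction by 0.52 and 0.19 (adjusted p = 0.0170 and 0.0472, the Pik3ca call kept in 2 of 12 fits that left out 1 mouse), whereas the regulatory member Pik3r1 was not called. Of the Akt substrates, Gsk3b, a glycogen synthase kinase, fell with activity by 0.25 (adjusted p = 0.0169), and Foxo4, a forkhead factor held out of the nucleus by Akt, fell with myostatin reduction by 0.27 (adjusted p = 0.00604). Foxo4 was at 189 to 219 in wild-type and 158 to 183 in myostatin-reduced mice.

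Upstream of mTOR complex 1, 1 of 5 tested genes of the TSC and Rheb list and 1 of 21 of the Rag, Ragulator and amino acid sensing list were called for activity, beside 14.5% of all genes, and 2 of 5 and 1 of 21 for genotype, beside 5.78%. Tsc1, a subunit of the complex that holds mTOR complex 1 back, fell with activity by 0.24 (adjusted p = 0.00518), and its partner Tsc2 rose with myostatin reduction by 0.23 (adjusted p = 0.0434), a call kept in 1 of those 12 fits. Ddit4l, a stress-induced inhibitor of mTOR complex 1, rose with myostatin reduction by 0.44 (adjusted p = 0.0164), from 364 ± 8.67 in IW to 533 ± 11.7 in IM and from 372 ± 62.4 in AW to 465 ± 80.9 in AM. Rragd, a Rag GTPase that recruits mTOR complex 1 to the lysosome, fell with activity by 0.32 (adjusted p = 0.00298), and Sesn1, a leucine-binding inhibitor of that step, rose with myostatin reduction by 0.20 (adjusted p = 0.0436), a call kept in 2 of them.

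Downstream of mTOR complex 1, 4 of 11 tested genes (36.4%) were called lower with activity and none higher, beside 6.51% of all genes, with a list median of -0.17. None of the 4 was called without AW2, AW3, IM1 or AM2, or with the slow-fibre score as a covariate. They were Eef2k, the kinase that inhibits elongation factor 2, at -0.34, Eif4ebp2, the more abundant relative of Eif4ebp1, at -0.25, and the initiation factors Eif4b and Eif4g1 at -0.22 and -0.19. Of the 12 fits that left out 1 mouse, Eif4b was called in 7, Eef2k in 6 and Eif4ebp2 and Eif4g1 in 4 each. Eif4ebp2 was the pathway gene called in both contrasts, since it rose with myostatin reduction by 0.31 (adjusted p = 0.0332). None of the 5 tested subunits of the mTOR complexes besides Mtor was called in either contrast, nor was their assembly factor Tti1. With the slow-fibre score as a covariate, Irs2, Tsc1 and Rragd kept their call for activity and 5 of the 8 genes, Grb10, Pik3cb, Foxo4, Ddit4l and Eif4ebp2, kept theirs for genotype.

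**Figure D5:**
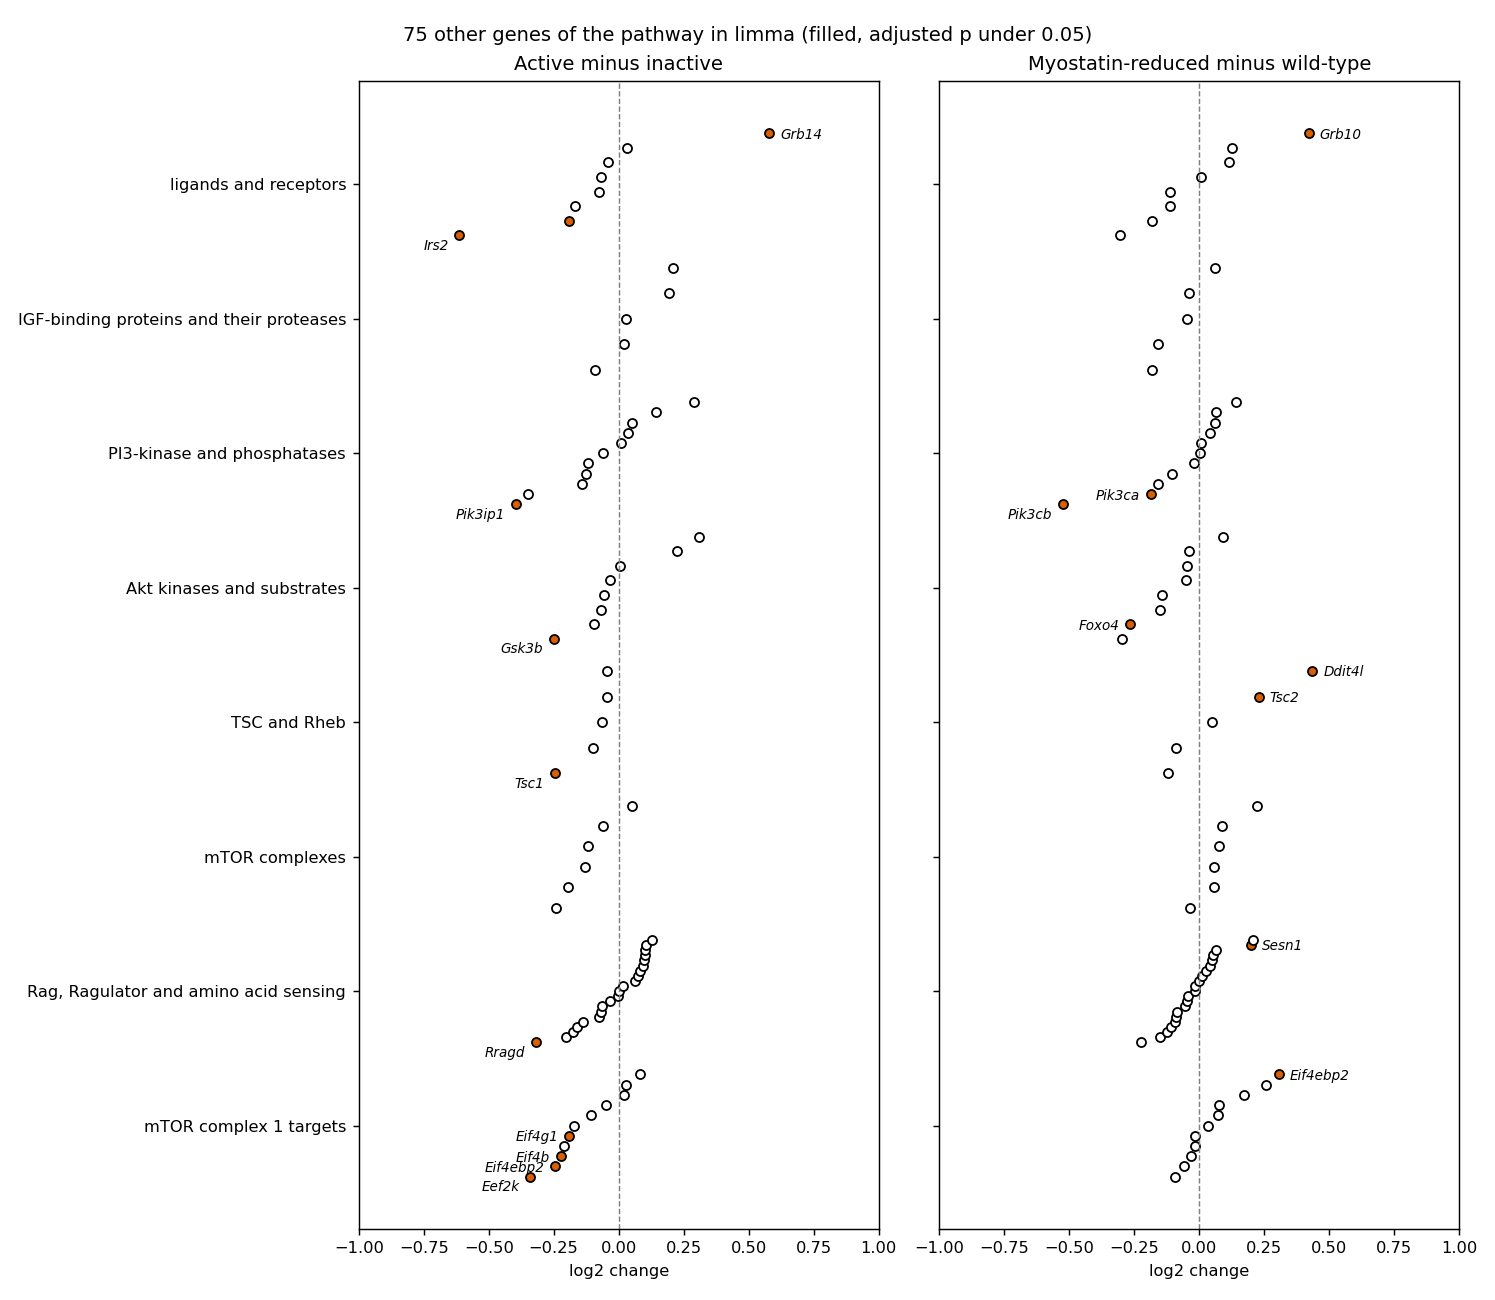
Log2 changes (horizontal axes) of the 75 other pathway genes, 1 point per gene in rows by role, for activity (left) and genotype (right), filled where the limma adjusted p was under 0.05 and labelled for up to 10 genes a side. The bottom row shows the 4 called genes downstream of mTOR complex 1 below 0 with activity, and the TSC row shows Ddit4l at 0.44 and Tsc2 at 0.23 with genotype.

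Members did not share 1 profile across mice. The genes most like each were ranked by Pearson's r of log2 values over the 12 mice, among 2555 or 2556 genes with a mean of at least 50, as a description in which group differences and fibre composition are shared. Igfbp5 was most like Tollip (r = 0.952), Aimp2 (0.950) and Tuba8 (0.950), and Eif4ebp1 was most like Slc6a6 (0.951), Agpat1 (0.917) and Gaa (0.916). Rps6kb1 was most like Mtdh (0.931), Ap2b1 (0.926) and Heatr3 (0.918). For the others the leading gene was Cast for Igf1 (0.892), Epas1 for Igf2 (0.885), Lrrc2 for Igf1r (0.900), Tmem134 for Akt1 (0.863), Ssr3 for Akt2 (0.910), Smoc2 for Mtor (0.829) and Anapc1 for Pik3r1 (0.876).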

How the data were processed

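Per the labels and the study's methods, the authors made single-end reads of polyadenylated RNA from each triceps (Genome Analyzer IIx), aligned them to mm9 using CASAVA, whose version was not given, and counted them over RefSeq exons. The deposited unit is a signal, that is, reads per gene divided by a library factor. The authors set that factor from the trimmed mean, with 5% cut from each end, of the non-mitochondrial genes, and counted 13 mitochondrial messages apart. All 12 columns matched a sample by name. Whole reads could not be recovered for nearly all genes (within 0.0051 normalized reads, 88.6 to 91.2% of values below 5 but 63.7 to 69.8% of those between 20 and 50 were whole multiples of the step of 1 read, where chance gives 9.7 to 13.2%), so no count test was run. Depth was estimated from that step, 0.077 to 0.105, and 3 reads corresponded to 0.231 to 0.316, which covers counting error only.

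Log2(value + 1) of 7247 genes with a mean of at least 10 was fitted in limma 3.58.1 (R 4.3.3) with 1 mean per group over all 12 mice and a mean-variance trend, which pools the spread over groups, with Benjamini-Hochberg adjustment. Activity and genotype were averages over the other factor, and the interaction was (AM - AW) - (IM - IW). The fit was tested on simulated data. Exon lengths and positions came from GENCODE on mm9 and promoters from RefSeq on GRCm38.p6, which held 9 of the 10 members. The members, gene lists and marker lists were chosen with earlier results of these data known. Every member was described. Of other pathway genes, the called ones were named, at most 10 per contrast by size of change, and for each member the 3 genes with the highest Pearson's r were the most alike. Same-numbered mice were correlated in their deviations from group means at -0.605 to 0.484 over 18 pairs. Only IM and AM had all 3 pairs over 0.1 (0.171 to 0.322), so the numbers were taken to pair those groups alone, a pairing that comes from the data and not from the labels. It was picked from the same values that the paired fit tests, so that fit gives no independent support. Alternatives were other pseudocounts, filters and scalings, the replicate block, sample weights, other variance moderation, the slow-fibre score as a covariate, each contrast fitted on its own groups, leaving out each mouse and, added after seeing the data, IM and AM alone with their pairs as a block.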

Additional observations from a re-analysis of the deposited data

How the results depend on the processing

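Over the alternatives run, 675 values of the members' activity, genotype and interaction changes were obtained, of which 634 kept their direction and side of the threshold, 29 reversed, 4 lost and 8 gained a call. Igfbp5 kept its genotype call under every alternative. With the slow-fibre score as a covariate, no member (0) was called for activity or from IM to AM, 1 was called from IW to AM (Igfbp5) and 1 from AW to IM (Mtor), and 3 pathway genes were called for activity and 5 for genotype. Over all tested genes, calls for activity fell from 1051 to 401 with that covariate. Under that covariate the uncalled changes of Igfbp5 and Akt2 with activity reversed to 0.22 and 0.034 and that of Rps6kb1 with genotype to -0.012. With sample weights, 2 members were called for activity (Igf2 and Rps6kb1), 5 from AW to IM and 17 pathway genes for activity, and the activity change of Igf1r reversed to 0.040. Calls for activity over all tested genes rose under these weights too, from 1051 to 1740. With the replicate block, 2 members were called for activity (Eif4ebp1 and Rps6kb1), 4 were called from AW to IM (Eif4ebp1 added), and the block changed no other member's call. Over all tested genes 1082 were called for activity with the block, beside 1051 without it. A minimum mean of 50 gave 1 member from IW to AM (Igfbp5) and 5 pathway genes for genotype, fewer genes being tested (272 called for genotype in all, beside 419), and robust moderation gave 0 from IW to IM. The causes of the other shifts were not tested.

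Leaving out 1 mouse at a time gave 0 to 2 members for activity (0 without AW3, 2 without AW1, AM1 or AM3, and Eif4ebp1 or Mtor in place of Rps6kb1 without IM1 or AM2), 1 to 2 for genotype (2 without IW3), 0 to 1 from IM to AM (0 without AW2, IM1, IM2, IM3, AM2 or AM3) and from IW to IM (0 without IW1, IW3, IM1, IM2 or IM3), 0 to 1 from AW to AM and from IW to AM (1 without AW1), and 0 to 5 from AW to IM (5 without IW3, 1 without AW2, IM2 or IM3, 0 without AW3). Pathway genes called numbered 2 to 16 for activity, with 2 to 6 without IW2, AW2, AW3, IM1, IM2, IM3 or AM2, and 3 to 7 for genotype, with 3 to 5 without any mouse but IW3, AW1, AM1 or AM2. The uncalled changes that reversed ranged, for activity, from -0.031 to 0.086 (Igf1), -0.092 to 0.043 (Igf1r), -0.27 to 0.047 (Igfbp5) and -0.057 to 0.00094 (Akt2), and for genotype from -0.016 to 0.072 (Akt1) and -0.017 to 0.079 (Rps6kb1). For interaction they ranged from -0.0028 to 0.23 (Igf1), -0.013 to 0.29 (Igf1r), -0.55 to 0.087 (Igfbp5), -0.050 to 0.12 (Akt1), -0.084 to 0.021 (Akt2), -0.032 to 0.083 (Mtor) and -0.32 to 0.088 (Pik3r1). The counts over all tested genes, against which the members are read, moved as well, ranging over the same fits from 552 (without AW3) to 1485 (without AW1) for activity, 180 (without AW3) to 579 (without AW1) for genotype, 85 (without AM2) to 1098 (without AM1) from IM to AM, 23 (without IW1) to 216 from IW to IM, 4 (without AW3) to 15 from AW to AM, 58 to 309 from IW to AM, 553 to 1643 from AW to IM and 0 to 1 for interaction. The number of mice, 3 per group, limits the precision of every value here.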
